A study of Sus scrofa with 11 samples.

Results

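The albumin gene family encodes related plasma carriers made by hepatocytes, and 4 of its genes were followed here across 11 libraries of pig liver: ALB (albumin), AFP (alpha-fetoprotein), AFM (afamin) and GC (the vitamin D-binding protein). The hepatocyte regulators HNF4A, ZHX2 and ZBTB20 were chosen with them by name, and the genes were found by pairing pig Ensembl gene IDs with symbols. All 4 family genes and 2 of the 3 regulators were measured, which makes 6 genes of 12505 in the table. ZBTB20 was not analysed here. All 6 passed the filter of 1 FPKM (fragments mapped to a gene, scaled for its length and for the size of the library) in at least 2 libraries. AFP passed it only through the 6 libraries of 20 and 30 Gy.

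The pigs' livers had been irradiated with 20, 30 or 40 Gy and are labelled day 35, with 3 libraries at each dose, and 2 control libraries are labelled day 0. All 11 are wild type by label, and no allele or further agent is named. The labels give liver as the tissue and hepatocyte as the cell type, and they name no animal behind any library. The p-values therefore rest on spread among libraries, and part of it may be technical. Elapsed time and radiation cannot be told apart against control, whereas the doses share a day.

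Albumin is the main protein of plasma, carries fatty acids and hormones, and holds water in the vessels. Alpha-fetoprotein takes its place in the fetus and is shut down after birth, and it is known to return in regenerating liver and in liver cancer. Afamin binds vitamin E, and the vitamin D-binding protein carries vitamin D metabolites and captures actin released from damaged cells. HNF4A is the nuclear receptor that keeps many hepatocyte genes on, ALB among them. In mice ZHX2 and ZBTB20 are repressors that silence Afp after birth.

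Before the genes are described, some features of the libraries need stating. In 2 pairs the libraries were nearly identical. The log2 ratios between 20Gy-3 and 30Gy-3, which carry different dose labels, had a standard deviation of 0.13 over the 4806 genes that reached 5 FPKM in every library. For 30Gy-1 against 30Gy-2 it was 0.137. The other 53 pairs lay between 0.305 and 1.01. The lower-dose libraries formed 2 sets across both doses. 20Gy-1, 20Gy-3 and 30Gy-3 lay at most 0.315 apart, and 20Gy-2, 30Gy-1 and 30Gy-2 at most 0.352. Libraries of different sets lay between 0.543 and 0.642 apart. 40Gy-1 stood apart from 40Gy-2 and 40Gy-3 by 0.858 and 0.889, while those lay 0.35 from each other. The deposited FPKM summed to between 520839 and 949840 per library and the depth is unknown. Means ± SD count 30Gy-1 and 30Gy-2 as 1 sample, so n = 2 in control and at 30 Gy and n = 3 at 20 and 40 Gy. Markers fixed for hepatocytes were all measured (14 of 14) and summed to between 26853 and 42767.5 FPKM. Endothelial markers (10 of 10 measured, none listed at 0) summed to between 154 and 406 FPKM and macrophage markers (9 of 10) to between 341 and 1179, so RNA of such genes was present beside that of hepatocytes.

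Against control, AFP was the only member called higher at 20 and 30 Gy, and ALB the only one called lower at 40 Gy. AFM lay above control at 20 and 30 Gy too, by 1.68 and 1.71 on the log2 scale, but missed the threshold. Against the lower doses, ALB, AFP and AFM all fell at 40 Gy, whereas GC, HNF4A and ZHX2 did not pass the test in any comparison. Changes are differences of log2(FPKM + 1) in limma, fitted to all 11 libraries, with p adjusted by the Benjamini-Hochberg method over 11644 genes. Called genes have an adjusted p under 0.05.

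ALB (ENSSSCG00000008948; Sscrofa11.1 chromosome 8, 69643427 to 69663152, whole gene) was among the most abundant transcripts of every library. It stood at 42547 FPKM in control-1 and 27027 in control-2. At 20 Gy it was 27264, 32222 and 30180 FPKM in libraries 1 to 3, and at 30 Gy 32564, 35552 and 30597. The 3 libraries of 40 Gy had 10810.5, 7119 and 7050. All 3 libraries of 40 Gy lay below all 8 others, and control, 20 Gy and 30 Gy overlapped. In 10.8% of all genes tested every 40 Gy library lay below every library of 20 and 30 Gy. The share that lay below control as well was not counted. Among the 12505 genes of a library, ALB ranked between the first and the third place in control and at 20 and 30 Gy, but 6 in 40Gy-1 and 22 in both 40Gy-2 and 40Gy-3. Its share of the summed FPKM was 4.98% and 3.60% in control, between 4.24% and 4.80% at 20 and 30 Gy, and 2.08%, 0.841% and 0.742% at 40 Gy.

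Mean ALB was 34787 ± 10975 FPKM in control, 29889 ± 2492 at 20 Gy, 32327 ± 2447 at 30 Gy and 8326 ± 2152 at 40 Gy. Against control the 40 Gy level fell by 2.06 on the log2 scale, which is 4.16-fold (SE 0.301, adjusted p = 0.0045). Against 20 and 30 Gy together it fell by 1.94, or 3.84-fold (SE 0.233, adjusted p = 6.56e-04). The changes at 20 Gy (-0.19 on the log2 scale, 95% interval -0.85 to 0.48, adjusted p = 0.754) and 30 Gy (-0.05, -0.71 to 0.62, adjusted p = 0.96) did not pass. The call against control was lost with quantile normalization (adjusted p = 0.0595), with only the 2 groups in the fit (0.151), and with both near-identical pairs reduced (0.0756), which means 30Gy-1 and 30Gy-2 averaged and the pair across doses removed, over a range of 2.38e-04 to 0.151. That last setting also ended the call against the lower doses (adjusted p = 0.0647, range 5.04e-05 to 0.0647), with changes of -2.06 and -1.96.

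In bulk liver, fewer hepatocytes and less ALB RNA per hepatocyte cannot be told apart from the level of ALB. The summed level of the 14 hepatocyte markers at 40 Gy, between 28225 and 37373 FPKM, lay within the control range of 26853 to 42767.5. Such a sum rests mostly on the most abundant of the markers, which include secreted proteins such as TTR and TF. Of the 14, 4 were called lower at 40 Gy than at 20 and 30 Gy, against 9.71% of all genes, and the median change of the list was -0.29, against 0.07 over all genes. Other markers differed at 40 Gy too, though not always in all of its libraries. Neutrophil markers (4 of 7 measured) summed to between 8.42 and 18.2 FPKM at 40 Gy, against 1.65 and 4.74 in control and between 1.24 and 1.75 at 20 and 30 Gy. S100A12 and S100A8 among them were listed at 0 in some libraries. Markers of B and plasma cells (4 of 6 measured) summed to between 71.2 and 110 FPKM at 40 Gy and to between 40.2 and 45.5 elsewhere. They did not all move one way. Of the 3 tested, 2 were called higher and 1 lower at 40 Gy than in control, beside 2.99% and 4.41% of all genes. Against the lower doses 2 were called higher, beside 11.8%. Stellate cell and fibroblast markers (10 of 10) summed to 374 FPKM in 40Gy-1 but to 51.8 and 42.9 in 40Gy-2 and 40Gy-3, beside 54.5 and 74.5 in control and between 127 and 182 at the lower doses. Erythroid markers (3 of 5) summed to between 11.7 and 54.4 FPKM at 40 Gy and between 58.1 and 826 elsewhere. Of the macrophage markers 2 of 9 were called higher at 40 Gy than at the lower doses, beside 11.8% of all genes. They summed to 1179 FPKM in 40Gy-1, 524 and 519 in 40Gy-2 and 40Gy-3, and between 341 and 736 at the lower doses. In control they summed to 899 and 675, above 40Gy-2 and 40Gy-3. Of the markers of T and NK cells 2 of 4 were called lower, beside 9.71%. Those summed to 45.3 FPKM in 40Gy-1, 15.9 and 15.7 in 40Gy-2 and 40Gy-3, and between 30.8 and 33.2 at the lower doses. The part of all these markers in the fall of ALB was not tested.

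**Figure D1:**
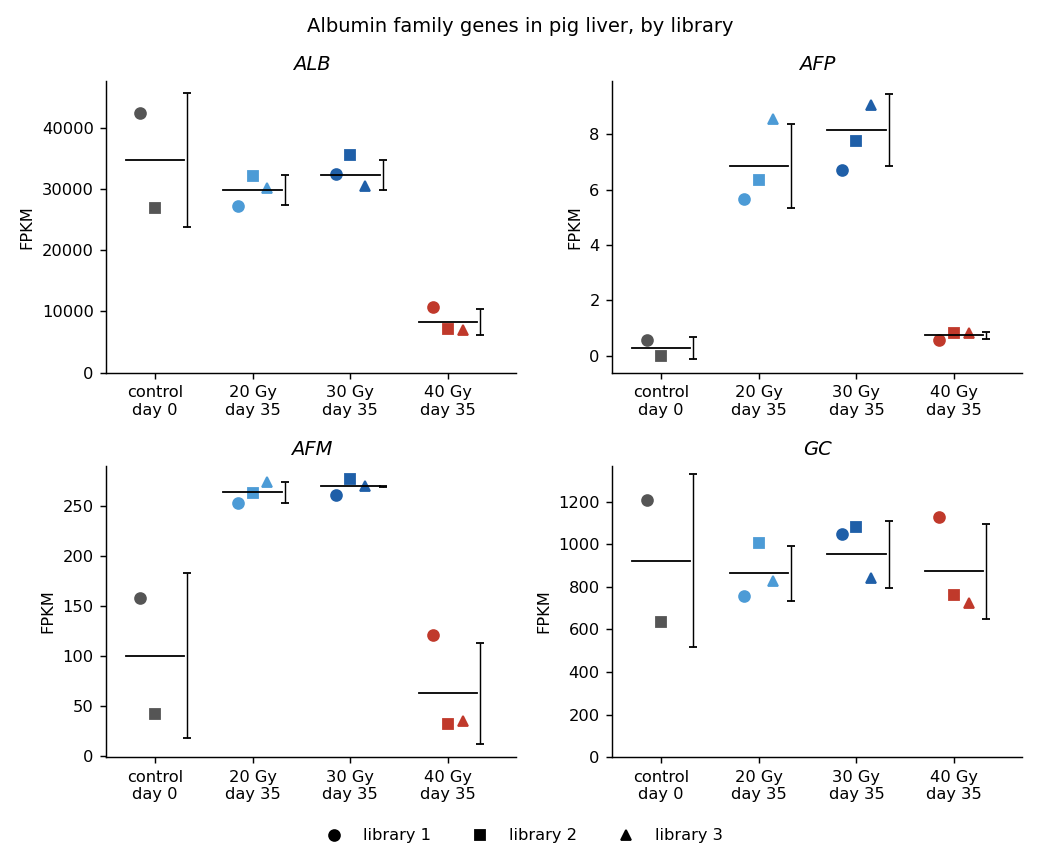
FPKM of the 4 albumin family genes (y axis, linear) in each library by group (x axis). Points are libraries, marked by their number, the horizontal line is the group mean with 30Gy-1 and 30Gy-2 counted as 1, and the bar beside it is the SD. ALB at 40 Gy lies between 7050 and 10810.5 FPKM, below all other libraries, AFP at 20 and 30 Gy lies between 5.66 and 9.05, above all others, and GC overlaps among the groups.

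AFP (ENSSSCG00000008949; chromosome 8, 69677690 to 69698864) starts 14.5 kb beyond the end of ALB. Its level was low throughout. Control-1 had 0.576 FPKM and control-2 was listed at 0. The libraries of 20 Gy had 5.66, 6.34 and 8.55 FPKM, and those of 30 Gy had 6.69, 7.75 and 9.05. The 40 Gy libraries had 0.586, 0.83 and 0.811 FPKM, the lowest of them just above control-1. All 6 libraries of 20 and 30 Gy lay above all 5 others, with no overlap. Marker sums of these libraries differed from control as well. Of the proliferation markers 4 of 8 were measured. At each of 20, 30 and 40 Gy 2 were called higher than in control, beside 2.03%, 1.32% and 2.99% of all genes. They summed to between 3.8 and 6.75 FPKM at the lower doses, 0.581 and 1.15 in control, and between 3.78 and 7.25 at 40 Gy. Stellate cell and fibroblast markers had the sums given above. Endothelial markers summed to between 154 and 197 FPKM, against 329 and 406 in control and 163, 285 and 255 at 40 Gy. Those of T and NK cells summed to between 30.8 and 33.2, against 21.2 and 23.7 in control and 45.3, 15.9 and 15.7 at 40 Gy. The part of these markers in the level of AFP was not tested. AFP ranked between 4417 and 5936 of 12505 genes at the lower doses and between 10566 and 12371 in control and at 40 Gy.

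Against control, AFP rose by 2.63 at 20 Gy (SE 0.233, adjusted p = 4.2e-04) and by 2.81 at 30 Gy (SE 0.233, adjusted p = 3.04e-04). Over the 3 doses it rose by 1.97 (SE 0.2, adjusted p = 9.5e-04). Since AFP passed the filter only through the libraries where it was high, the fit without a filter also matters, and there the adjusted p was 4.73e-04 at 20 Gy, 3.37e-04 at 30 Gy, 0.00103 over the 3 doses and 1.16e-04 for 40 Gy against the lower doses. In the 40 Gy group it fell below the lower doses by 2.25, or 4.75-fold on the FPKM + 1 scale (SE 0.181, adjusted p = 1.03e-04). The difference between 40 Gy and control was 0.47 (95% interval -0.05 to 0.99, adjusted p = 0.246). Because AFP lies near the pseudocount, these sizes depend on it: with 0.1 FPKM in place of 1 the changes were 4.72 at 20 Gy, 4.92 at 30 Gy, 3.77 over the 3 doses and -3.14 for 40 Gy against the lower doses, all called. The 30 Gy call was lost with both near-identical pairs reduced, where 1 library is left at that dose (adjusted p = 0.063, range 2.06e-04 to 0.063).

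AFM (ENSSSCG00000008950; chromosome 8, 69706823 to 69728269) follows AFP after 7.96 kb. Its controls were far apart, at 159 FPKM in control-1 and 41.9 in control-2. At 20 Gy it had 254, 264 and 274 FPKM, and at 30 Gy 262, 277 and 270, a narrow band that held all 6 libraries. The level was 121 FPKM in 40Gy-1 and 31.4 and 35.2 in 40Gy-2 and 40Gy-3. As with AFP, every library of 20 and 30 Gy lay above every control and every 40 Gy library. Control and 40 Gy overlapped.

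The means of AFM were 100.2 ± 82.4 FPKM in control, 264 ± 10.4 at 20 Gy, 269.9 ± 0.622 at 30 Gy and 62.5 ± 50.6 at 40 Gy. It fell at 40 Gy against the lower doses by 2.36, or 5.12-fold (SE 0.463, adjusted p = 0.0074). With both near-identical pairs reduced this call was lost (-2.34, adjusted p = 0.125, range 4.44e-04 to 0.125). The differences from control were 1.68 at 20 Gy (95% interval 0.35 to 3.0, adjusted p = 0.138) and 1.71 at 30 Gy (0.38 to 3.04, adjusted p = 0.176), which did not pass. The sizes rested on which control was used: without control-2 they were 0.73 and 0.76 (adjusted p = 0.588 and 0.708), and without control-1 they were 2.62 and 2.66 (0.0777 and 0.0818). Without 40Gy-1 both passed, with adjusted p of 0.0325 and 0.0372 (ranges 0.0325 to 0.588 and 0.0372 to 1). At 40 Gy the difference from control was -0.66 (95% interval -1.99 to 0.67, adjusted p = 0.533).

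GC (ENSSSCG00000027609; chromosome 8, 68326293 to 68360262) lies 1.28 Mb from ALB on the other side and overlaps an annotated lncRNA, LOC110262121. Its controls had 1210 and 635 FPKM. The lower doses had 757, 1007 and 826 FPKM at 20 Gy and 1049, 1081 and 842 at 30 Gy, and 40 Gy had 1128, 762 and 725. All groups overlapped. The differences from control were -0.03 at 20 Gy (95% interval -0.74 to 0.68, adjusted p = 0.965), 0.17 at 30 Gy (-0.54 to 0.88, adjusted p = 0.846) and -0.04 at 40 Gy (-0.75 to 0.67, adjusted p = 0.963). The difference between 40 Gy and the lower doses was -0.10 (-0.65 to 0.45, adjusted p = 0.787).

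Read against all genes, these calls had the following background. At 20 Gy 4.23% of the 11644 genes were called against control, at 30 Gy 3.03%, at 40 Gy 7.39%, and 4.71% over the 3 doses, and 1 of the 6 members was called in each: AFP upward in the first 2 and over all doses, and ALB downward at 40 Gy. Upward and downward calls made up 2.03% and 2.2% of genes at 20 Gy, 1.32% and 1.71% at 30 Gy, 2.99% and 4.41% at 40 Gy, and 1.86% and 2.84% over the 3 doses. Between 40 Gy and the lower doses 21.5% of genes were called, 11.8% higher and 9.71% lower, and 3 of the 6 members fell. All 40 Gy libraries lay below all libraries of 20 and 30 Gy in these 3 members and in 10.8% of all genes. All 20 and 30 Gy libraries lay above all others in 2 members, AFP and AFM, and in 4.07% of all genes. The pattern of AFP, called higher at both lower doses and lower again at 40 Gy, was shared by 89 genes or 0.764%. The pattern of ALB, called lower at 40 Gy against both control and the lower doses, was shared by 279 genes or 2.4%. The comparisons with control share the same 2 libraries.

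**Figure D2:**
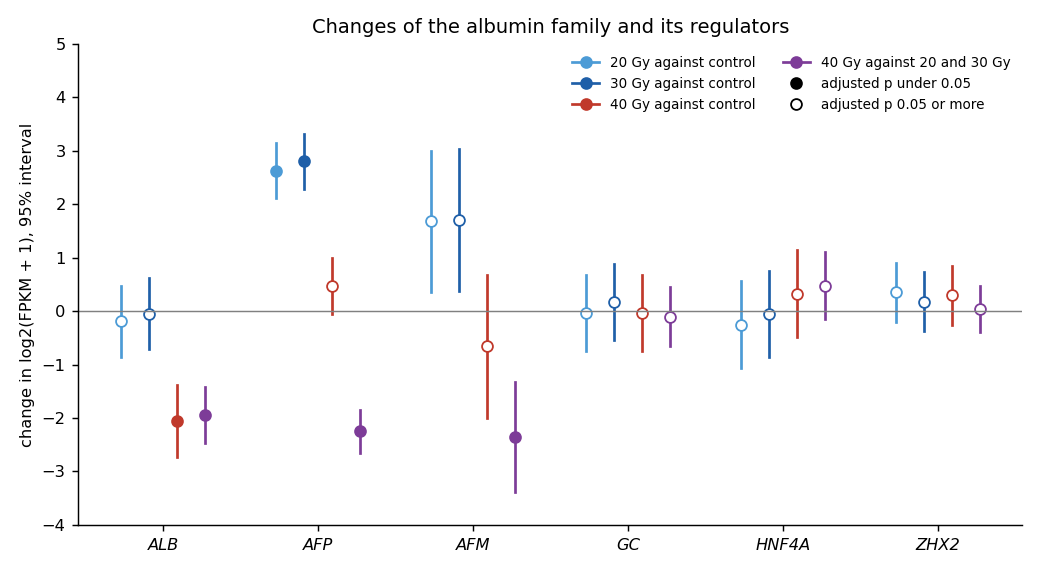
Change in log2(FPKM + 1) (y axis) of the 6 measured genes (x axis) in 4 comparisons, as the limma estimate with its 95% interval. Filled points have an adjusted p under 0.05: AFP at 20 and 30 Gy, ALB at 40 Gy, and ALB, AFP and AFM for 40 Gy against the lower doses, where the estimates are -1.94, -2.25 and -2.36.

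Ratios between members within a library do not change when the library is scaled by a single factor, though quantile normalization can change them. GC stood at 28.4 and 23.5 FPKM per 1000 FPKM of ALB in control and between 27.4 and 32.2 at 20 and 30 Gy. The 40 Gy libraries stood at 104, 107 and 103. The 3 libraries of 40 Gy were thus close to each other in this ratio, 40Gy-1 included, and far above all others. ALB made up between 96.1% and 97.6% of the family's summed FPKM in control and at the lower doses and 89.6%, 90.0% and 90.3% at 40 Gy.

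Alpha-fetoprotein relative to albumin follows, a ratio whose denominator was itself lower at 40 Gy. Per 1000000 FPKM of ALB, AFP had 13.5 in control-1 and was listed at 0 in control-2. At 20 Gy it had 208, 197 and 283, and at 30 Gy 206, 218 and 296. At 40 Gy it had 54.2, 117 and 115, between the controls and the lower doses, with no overlap. The near-identical libraries 20Gy-3 and 30Gy-3 had the 2 highest ratios.

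Afamin relative to albumin did not follow this order. Per 1000 FPKM of ALB, AFM had 3.73 and 1.55 in control and between 7.80 and 9.30 at the lower doses. 40Gy-1 was the highest library of all at 11.2, while 40Gy-2 and 40Gy-3 had 4.42 and 4.99. Relative to GC, AFM had 13.1% and 6.61% in control, between 24.9% and 33.5% at the lower doses, and 10.7%, 4.13% and 4.85% at 40 Gy. These ratios are given as descriptions and carry no test.

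**Figure D3:**
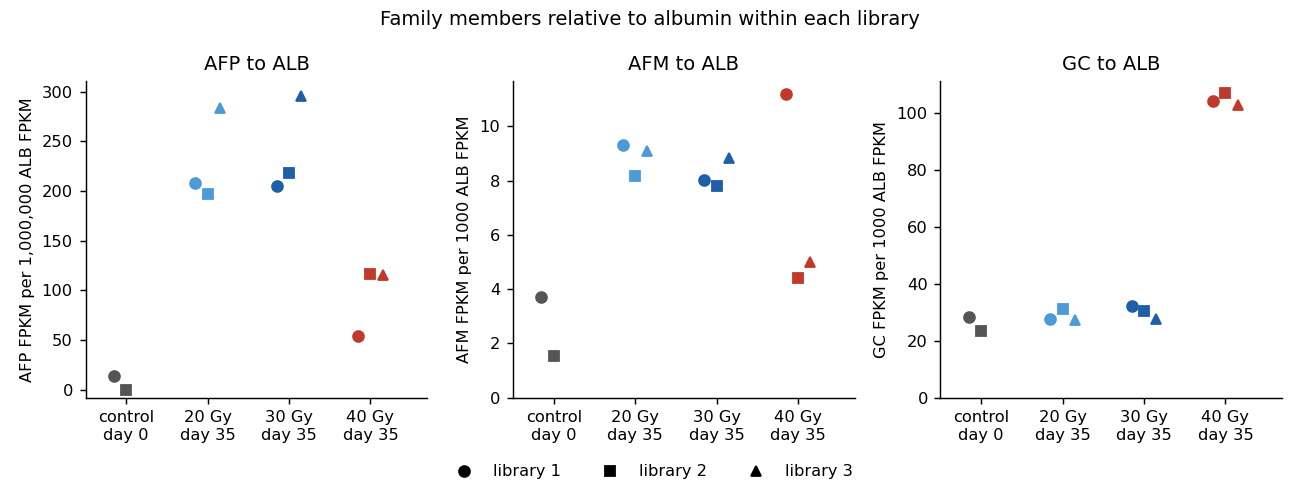
AFP per 1000000 FPKM of ALB, and AFM and GC per 1000 FPKM of ALB (y axes, linear), in each library by group (x axis), with points marked by library number. GC lies between 23.5 and 32.2 in the 8 libraries of control, 20 and 30 Gy and between 103 and 107 at 40 Gy, and AFP lies between 54.2 and 117 at 40 Gy, apart from both other sets.

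HNF4A (ENSSSCG00000007371; chromosome 17, 46783772 to 46847505) overlaps the annotated lncRNA LOC102159476. It had 90.7 and 97.3 FPKM in control. At 20 Gy it had 67.9, 108 and 67.3 FPKM, and at 30 Gy 107, 106 and 65.3. The 40 Gy libraries had 73.4, 155 and 144. The 6 lower-dose libraries fell into 3 between 65.3 and 67.9 FPKM and 3 between 106 and 108, across both doses. These are the sets described above over many genes, each with a near-identical pair, so the split is not particular to HNF4A. 40Gy-2 and 40Gy-3 were the highest of all 11, and the groups overlapped.

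The means of HNF4A were 94.0 ± 4.66 FPKM in control, 81.2 ± 23.5 at 20 Gy, 85.9 ± 29.2 at 30 Gy and 124 ± 44.3 at 40 Gy. At 40 Gy its difference was 0.32 from control (95% interval -0.49 to 1.14, adjusted p = 0.623) and 0.47 from the lower doses (-0.15 to 1.10, adjusted p = 0.247). Without 40Gy-1 the latter was 0.81 and passed (adjusted p = 0.0269, range 0.0269 to 0.664). At 20 and 30 Gy it differed from control by -0.25 (95% interval -1.06 to 0.57) and -0.05 (-0.86 to 0.76), with adjusted p of 0.731 and 0.961. Within libraries there were 278 to 469 FPKM of ALB per FPKM of HNF4A in control, 298 to 469 at the lower doses, and 147, 45.9 and 48.9 at 40 Gy.

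ZHX2 (ENSSSCG00000021586; chromosome 4, 16374900 to 16553859) was low, and 3 lncRNA genes overlap it. It had 2.78 and 3.09 FPKM in control. The lower doses had 4.71, 4.15 and 3.24 FPKM at 20 Gy and 3.19, 3.99 and 3.19 at 30 Gy, all above both controls. The gap was small, at 3.19 against 3.09 FPKM, and the share of all genes with such a pattern was not counted. At 40 Gy ZHX2 had 2.51, 5.65 and 3.83, which spanned all other values. No difference passed the test: 0.35 at 20 Gy (95% interval -0.21 to 0.90, adjusted p = 0.448), 0.18 at 30 Gy (-0.38 to 0.73, adjusted p = 0.79), 0.30 at 40 Gy (-0.26 to 0.85, adjusted p = 0.501), and 0.04 for 40 Gy against the lower doses (-0.39 to 0.47, adjusted p = 0.905). Any part of ZHX2 in the level of AFP was not tested.

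**Figure D4:**
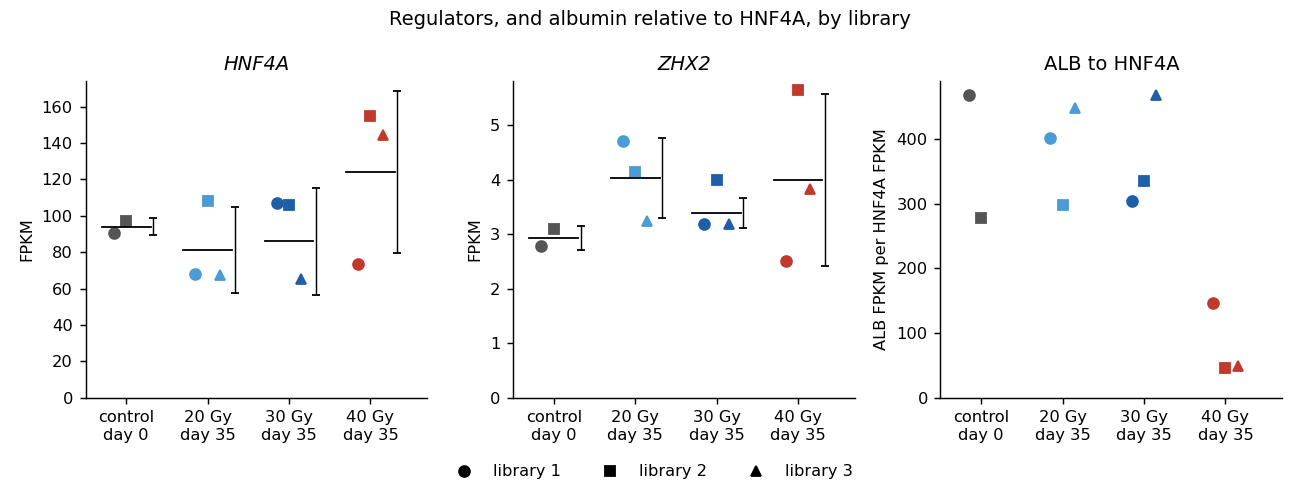
FPKM of HNF4A and ZHX2, and FPKM of ALB per FPKM of HNF4A (y axes, linear), in each library by group (x axis). Points are libraries marked by number, and the line and bar in the first 2 panels are the group mean and SD with 30Gy-1 and 30Gy-2 counted as 1. HNF4A lies between 65.3 and 155 FPKM with overlapping groups, and the ratio of ALB to HNF4A lies between 278 and 469 outside 40 Gy and between 45.9 and 147 at 40 Gy.

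The order of the group means differed between the genes. For ALB, control, 30 Gy and 20 Gy overlapped and 40 Gy stood below them. For AFP and AFM, 30 Gy and 20 Gy overlapped at the top. At the bottom, 40 Gy and control overlapped for AFM, and for AFP they did not overlap but their difference missed the threshold. For GC and HNF4A no neighbouring groups were separated.

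Of the genes beside the family on chromosome 8, 6 of 8 listed were measured, none was called against control, beside 3.03% to 7.39% of all genes, and 1 was called lower at 40 Gy than at the lower doses, beside 9.71%. ANKRD17, an ankyrin-repeat protein gene 112 kb before ALB, had 3.62 and 3.29 FPKM in control, between 3.67 and 3.89 at the lower doses and 3.81, 4.74 and 4.17 at 40 Gy. RASSF6, a Ras-association domain gene 45.3 kb beyond AFM, had 13.4 and 3.98 FPKM in control, 56.6, 25.9 and 56.5 at 20 Gy, 24.4, 26.5 and 55.5 at 30 Gy and 9.14, 24.9 and 24.7 at 40 Gy, and it overlaps LOC102166306. Its differences did not pass (2.40 at 20 Gy, adjusted p = 0.0501, and -1.05 for 40 Gy against the lower doses, adjusted p = 0.124). SLC4A4, a bicarbonate transporter gene beyond GC, was called lower at 40 Gy than at the lower doses, from 3.47 ± 0.257 and 4.09 ± 0.41 to 2.36 ± 0.459 FPKM (-0.53, SE 0.131, adjusted p = 0.0201). This call was lost without 40Gy-2 (0.0839), with the pair across doses removed (0.0642) and with both pairs reduced (0.204), over a range of 0.011 to 0.204. COX18, CXCL8 and MTHFD2L stayed under 2 FPKM in all libraries and did not pass any test, and CXCL8 was listed at 0 in control-1.

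With both near-identical pairs reduced, each call of a gene named from the lists was lost except that of SERPINA6.

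Beside AFP stands a list of other genes active in fetal liver. Of 20 genes listed, 11 were measured and 8 tested, none was called upward in any of the 5 comparisons, beside 1.32% to 11.8% of all genes, and the median change was 0.22 at 20 Gy and 0.12 at 30 Gy, against -0.03 and -0.02 over all genes. GPC3, a cell-surface proteoglycan gene that Zhx2 represses in mouse liver, went from 133 ± 55.0 FPKM in control to 62.0 ± 3.16, 67.2 ± 2.70 and 42.2 ± 7.47 at 20, 30 and 40 Gy. Its differences from control at 20 Gy (-1.03, adjusted p = 0.0516) and 30 Gy (-0.90, adjusted p = 0.1) did not pass. It fell over the 3 doses by 1.17 (SE 0.219, adjusted p = 0.0162) and at 40 Gy by 1.59 (SE 0.255, adjusted p = 0.00676). Without control-1 these calls were lost, at -0.74 and -1.16 (adjusted p = 0.173 and 0.0501). They were also lost with both near-identical pairs reduced (0.166 and 0.067), the first also with the pair across doses removed (0.0552) and the second with only the 2 groups in the fit (0.114). The other fetal genes tested, which were IGF2BP2, IGF2BP3, PEG3, MEST, EPCAM, PKM and ALDOA, did not pass in any comparison.

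Of other plasma proteins of the liver, 25 of 28 listed were tested. None was called at 20 or 30 Gy against control, where 4.23% and 3.03% of all genes were, and the medians were -0.22 and 0.00. At 40 Gy against the lower doses 7 of the 25 fell and 1 rose, with a median of -0.41, against 9.71% and 11.8% of all genes. SERPINA6, the cortisol-binding globulin, had between 121 and 146 FPKM at 20 and 30 Gy, 27.4 and 37.1 in control, and between 1.76 and 23.6 at 40 Gy, where it fell below the lower doses by 4.42 (SE 0.55, adjusted p = 7.39e-04, range 3.06e-07 to 0.0409). All 6 libraries of the lower doses lay above all others, as for AFP and AFM. HRG, the histidine-rich glycoprotein, had the same order, with between 3073 and 4268 FPKM at the lower doses, 402 and 1566 in control, and between 110 and 893 at 40 Gy (-3.81, SE 0.614, adjusted p = 0.00312). Transthyretin, TTR, which carries thyroid hormone and the retinol carrier, followed ALB instead. It had 3250 and 7163 FPKM in control, between 3470 and 4620 at the lower doses and between 490 and 2221 at 40 Gy, where it fell by 2.21 against the lower doses (SE 0.435, adjusted p = 0.00751). ITIH4, an acute-phase inhibitor family member, rose by 3.05 (SE 0.459, adjusted p = 0.00217), to between 3219 and 13251 FPKM at 40 Gy from between 713 and 1393 at the lower doses. With both near-identical pairs reduced the calls of HRG (0.0751), TTR (0.129) and ITIH4 (0.0732) were lost.

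The list of HNF4A target genes fell at 40 Gy in part. Of 21 tested genes 8 fell and 1 rose against the lower doses, with a median of -0.62, again beside 9.71% and 11.8% of all genes, and none was called at 20 or 30 Gy against control. APOA2, TTR and TF stand in this list and in the plasma protein list, and TTR and TF also among the hepatocyte markers. SLC10A1, the bile acid importer NTCP, fell from 110 ± 11.3 and 105 ± 0.996 to 32.6 ± 14.7 FPKM (-1.79, SE 0.302, adjusted p = 0.00374, lost with both pairs reduced at 0.0842). Transferrin, TF, went from between 3650 and 7362 FPKM at the lower doses to between 690 and 4666 at 40 Gy (-2.0, SE 0.58, adjusted p = 0.0353). CYP7A1, the rate-limiting enzyme of bile acid synthesis, went from between 36.6 and 89.5 to between 0.631 and 54.5 FPKM (-3.44, SE 1.04, adjusted p = 0.0405). The calls of TF and CYP7A1 were each lost in 10 of 23 alternatives, among them without 40Gy-2 (0.169 and 0.188) and without 40Gy-3 (0.145 and 0.169), without 20Gy-1 (0.0565 and 0.079), 20Gy-3 (0.0617 and 0.0785), 30Gy-1 (0.0673 and 0.0621) and 30Gy-2 (0.067 and 0.0635). TF lost its call also without 20Gy-2 (0.0546), and CYP7A1 without 30Gy-3 (0.0751).

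Of 33 liver transcription factors tested, 1 rose and 5 fell at 40 Gy against the lower doses, beside 11.8% and 9.71% of all genes, with a median of -0.00. At each of 20 and 30 Gy 1 rose and 1 fell against control, beside 2.03% and 2.2% of all genes at 20 Gy and 1.32% and 1.71% at 30 Gy. NR0B2, the corepressor SHP, was the one that fell at the lower doses, from 74.0 and 117 FPKM in control to between 15.5 and 28.9, and it stood at between 52.2 and 129 at 40 Gy (2.18 against the lower doses, SE 0.313, adjusted p = 0.00175, lost with both pairs reduced at 0.0587). All its libraries of 20 and 30 Gy lay below all others, a pattern whose share of all genes was not counted. RORA, a nuclear receptor of the clock and of lipid metabolism, rose at the lower doses from 0.842 and 1.24 FPKM to between 4.64 and 7.28 (1.90 at 20 Gy, SE 0.282, adjusted p = 0.00499, and 1.69 at 30 Gy, SE 0.282, adjusted p = 0.0116). Without control-2 the calls of RORA were lost (0.0634 and 0.121), as were those of NR0B2 against control (0.116 at 20 Gy and 0.22 at 30 Gy). Those of NR0B2 were also lost without 20Gy-1 at 20 Gy (0.0555) and without control-1 (0.0611), 30Gy-2 (0.0825) and 30Gy-3 (0.0768) at 30 Gy. With the pair across doses removed they were lost as well (0.0517 and 0.124), as was that of RORA at 30 Gy (0.0712), and the 30 Gy call of NR0B2 was lost with 30Gy-1 and 30Gy-2 averaged (0.066). The xenobiotic receptors NR1I2 (-1.03, adjusted p = 0.0136) and NR1I3 (-1.50, adjusted p = 0.043) were lower at 40 Gy than at the lower doses. Without 40Gy-2 (0.0775 and 0.202) and without 40Gy-3 (0.0646 and 0.17) both calls were lost, and that of NR1I3 (-2.27 without 40Gy-1) was lost in 15 of 23 alternatives, without any one of the libraries of control, 20 Gy and 30 Gy included (0.0555 to 0.0785).

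Genes that handle the cargo of the family were few. For vitamin D, CYP27A1, a mitochondrial sterol hydroxylase, fell from 716 ± 56.5 and 791 ± 16.0 at the lower doses to 296 ± 20.9 FPKM at 40 Gy (-1.34, SE 0.201, adjusted p = 0.00211, lost with both pairs reduced at 0.0877), and 2 of 4 tested genes fell, beside 9.71% of all genes. DHCR7, which removes the vitamin D precursor, was the other (-1.09, adjusted p = 0.0348), and it lost the call in 9 of 23 alternatives, among them without 20Gy-1 (0.0682), 20Gy-2 (0.0525), 30Gy-1 (0.0688), 30Gy-2 (0.0668), 40Gy-2 (0.0919) and 40Gy-3 (0.124). For vitamin E, ABCA1, a lipid exporter, rose at every dose, from 1.74 and 3.28 FPKM in control to between 5.84 and 8.79 (1.26, 1.42 and 1.23 at 20, 30 and 40 Gy, adjusted p = 0.0133, 0.00855 and 0.0118). Those 3 calls were lost without control-2 (0.12, 0.0984 and 0.0892) and with both pairs reduced (0.175, 0.431 and 0.079), and the first also without 20Gy-1 (0.0503), without 20Gy-3 (0.0502) and with the pair across doses removed (0.0765). The lipoprotein receptor SCARB1 fell at 40 Gy against the lower doses by 0.90 (SE 0.212, adjusted p = 0.0159, and 0.0894 and 0.0728 without 40Gy-2 and 40Gy-3). Of 3 tested genes of albumin recycling and uptake 1 fell, beside the same 9.71%: the endocytic adaptor DAB2 fell at 40 Gy against the lower doses (-0.77, SE 0.192, adjusted p = 0.0203, and 0.11 without 40Gy-2), and FCGRT, the receptor that recycles albumin, did not pass.

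**Figure D5:**
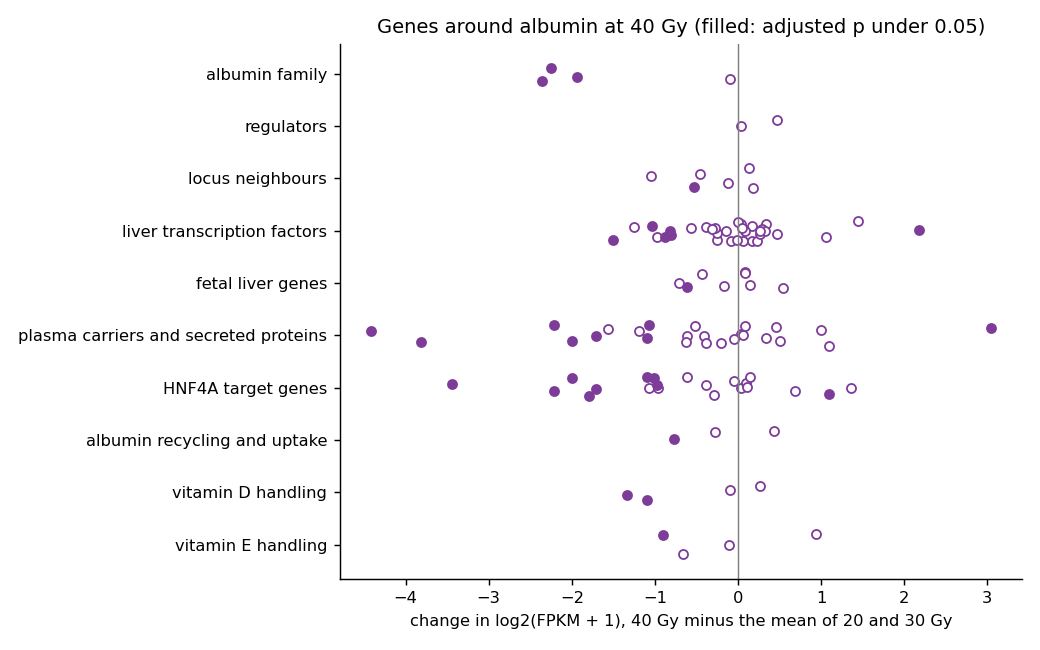
Change in log2(FPKM + 1) from the mean of 20 and 30 Gy to 40 Gy (x axis) for each tested gene of 10 lists (y axis), jittered vertically. Filled points have an adjusted p under 0.05. In the albumin family 3 of 4 points are filled, between -2.36 and -1.94, in the plasma protein list 8 of 25 and in the HNF4A target list 9 of 21.

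The genes whose levels were most like those of each member were found by Pearson's r of log2(FPKM + 1) over the 11 libraries among 5827 named genes, a description in which near-identical libraries and shared groups count. For ALB these were RPL3L (r = 0.992), C15orf62 (0.989) and GRTP1 (0.985). GRTP1 had 102 and 85.8 FPKM in control, between 74.1 and 95.4 at the lower doses and between 35.9 and 44.2 at 40 Gy. For AFP they were MORC4 (0.988), BIN1 (0.981) and SULT1E1 (0.969). SULT1E1, the estrogen sulfotransferase, had 65.0 and 48.9 FPKM in control, between 393 and 580 at the lower doses and 42.5, 114 and 138 at 40 Gy.

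AFM was most like TMEM97 (0.990), STARD4 (0.987) and THRSP (0.985). TMEM97 had 186 and 98.6 FPKM in control, between 285 and 308 at the lower doses, and 147, 65.2 and 63.9 at 40 Gy, with the same split of the controls and of the 40 Gy libraries as AFM. GC was like MRPS11 (0.946) and SERHL2 (0.928), HNF4A most like PEX16 (0.987), PPP1CB (0.983) and PRPF19 (0.974), and ZHX2 most like ND4 (0.935), USP7 (0.910) and ND5 (0.908). No 2 members shared one of these genes.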

How the data were processed

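RNA of 11 pig liver libraries was measured by paired-end sequencing of Trizol-extracted total RNA with a TruSeq kit, per the labels' protocols. The authors deposited 1 table of FPKM with 12505 genes, in which each of the 11 columns is named for 1 library. The submitters' processing notes list HISAT2, Cufflinks, HTSeq and the builds Sscrofa11.1 and mm10 but not what each was used for. For annotation, filters and strand nothing is given in the sources used here. Reads from genes that overlap may be mixed. FPKM divides by gene length and library total, and no whole-read steps were found (at most 7.69% of ratios of low values fell in 1 bin), so depth is unknown and precision rests on the spread between libraries.

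IDs were paired with symbols for 10561 genes, and coordinates come from RefSeq's Sscrofa11.1 gene table, matched by symbol. ZBTB20 is not analysed here. The 11644 genes that reached 1 FPKM in 2 or more libraries were tested on log2(FPKM + 1) with limma 3.58.1 in R 4.3.3 (4 group means, eBayes with trend, 7 residual degrees of freedom, two-sided, Benjamini-Hochberg over all genes tested). The direction and size of its changes were checked on simulated data. The simulated libraries were independent, without near-identical pairs, so that check does not cover the effect of such pairs on p. A library is named by its group and number. The alternatives were another pseudocount, 2 filters, 3 scalings, no trend, fewer groups, a replicate block, the near-identical libraries averaged or left out, and each library left out in turn. With a group left at 1 library, that library is assumed to vary like the others. The genes, lists and tests were chosen with earlier results of these data known. Beyond the members, at most 4 genes per list were named, by the largest called change with a mean of at least 5 FPKM in a group. All neighbours on chromosome 8 were named, and so were the 3 genes most like each member, except 1 that is not reported here.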

Additional observations from a re-analysis of the deposited data

How the results depend on the processing

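The depth is unknown, so no counting limit can be given for AFP or ZHX2, and each group rests on 2 or 3 libraries. Of the members' changes under the alternatives, 620 kept their direction and side of the threshold, 6 lost a call, 4 gained one and 48 changed sign, and those 48 were uncalled values. The cause of a lost call was not tested. Genes called over the 3 doses numbered 548, and 337 with 30Gy-1 and 30Gy-2 averaged, 290 with 20Gy-3 and 30Gy-3 removed and 42 with both. The same settings gave 295, 206 and 59 in place of 492 at 20 Gy, 130, 126 and 8 in place of 353 at 30 Gy, and 548, 551 and 123 in place of 861 at 40 Gy. Removal of the pair across doses left 1177 of 2508 calls between 40 Gy and the lower doses in number, and both steps 202. With only the groups compared in the fit, 547 genes were called at 30 Gy and 48 at 40 Gy. Members called fell to 0 at 30 Gy with both steps, to 0 at 40 Gy with quantile normalization, with only the groups compared and with both steps, and to 1 (AFP) between 40 Gy and the lower doses with both steps.

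Leaving out 1 library at a time gave 80 to 1416 genes over the 3 doses, 118 to 1644 at 20 Gy, 75 to 1110 at 30 Gy, 224 to 2655 at 40 Gy and 846 to 4611 between 40 Gy and the lower doses. The highest of each came without 40Gy-1. The lowest came without control-2 in the first 3, without control-1 (224) and without 40Gy-2 (846). Members called ranged from 1 to 2 over the 3 doses, at 20 Gy and at 30 Gy, stayed at 1 at 40 Gy, and ranged from 3 to 4 in the last comparison. Uncalled changes that crossed 0 in these fits ranged, over the 3 doses, from -0.04 to 1.86 for AFM, -0.43 to 0.50 for GC and -0.07 to 0.12 for HNF4A. At 20 Gy they ranged from -0.51 to 0.14 for ALB and -0.50 to 0.43 for GC, and at 30 Gy from -0.37 to 0.28 for ALB, -0.30 to 0.63 for GC and -0.17 to 0.18 for HNF4A. At 40 Gy the range was -1.61 to 0.29 for AFM and -0.50 to 0.43 for GC, and against the lower doses -0.30 to 0.01 for GC and -0.19 to 0.27 for ZHX2.

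Quantile normalization turned ALB to 0.18 and GC to 0.40 at 20 Gy, ALB to 0.05 and HNF4A to 0.06 at 30 Gy, GC to 0.39 at 40 Gy and ZHX2 to -0.05 against the lower doses. Scaling to the sum without the 50 most abundant genes gave 0.01 and 0.16 for ALB and GC at 20 Gy, 0.06 and 0.05 for ALB and HNF4A at 30 Gy and 0.16 for GC at 40 Gy. It moved the median of all genes by 0.13 over the 3 doses, 0.14 at 20 Gy and 0.15 at 40 Gy, and the share of calls that were higher from 39.6% to 59.3%, 48.0% to 64.0%, 43.6% to 53.8% and 40.4% to 70.3% (3 doses, 20, 30 and 40 Gy) and from 54.9% to 65.0% against the lower doses. Median scaling gave 41.8% there, -0.00 for HNF4A over the 3 doses and -0.06 for ZHX2 against the lower doses. Averaging 30Gy-1 and 30Gy-2 gave -0.03 for HNF4A over the 3 doses. Without the pair across doses ALB was 0.00 and HNF4A 0.18 at 30 Gy and ZHX2 -0.04 against the lower doses, and with both steps these were 0.01, 0.18 and -0.05.

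Library numbers were shared between groups, and the labels name no animal that would pair the libraries. Same-numbered deviations from the group means correlated above 0.1 in 7 of 15 pairs (r from -0.616 to 0.645). Deviations within so small a group offset each other, so these correlations cannot settle whether the numbers pair the libraries. With a replicate block the counts of genes called were 440, 399, 244, 805 and 2554 in the order above, no member's call changed, and uncalled GC at 20 and 40 Gy (0.05 in both), ALB at 30 Gy (0.00) and HNF4A at 30 Gy (0.02) changed sign.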
